A study of Mus musculus with 6 samples.

Results

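*Lars2* is the nuclear gene for the mitochondrial leucyl-tRNA synthetase. It was selected on its level in this same comparison, where the counts of *Drp1* KO macrophages far exceeded those of WT macrophages, so that difference is a description here and carries no test. Every transcript of the gene in the deposited tables was taken, which gave 9 of the 116873 transcripts listed and 1 of the 36137 genes that matched the annotation. The 9 transcripts were parted by whether they held at least 1 base of the final exon, which 4 did and 5 did not.

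RNA was measured in bone marrow–derived macrophages (BMDMs) of mice, 3 WT and 3 *Drp1* KO libraries, all after 8 hours of hypoxia with serum starvation (HSS, 2.1% oxygen per the labels), a culture model of ischemia. *Drp1* KO cells came from LysM-Cre+/- *Drp1* fl/fl mice, in which Cre recombinase runs from the lysozyme M promoter of myeloid cells and deletes the floxed gene for the mitochondrial fission protein DRP1 (*Dnm1l*). WT cells came from LysM-Cre+/- *Drp1*+/+ mice, so both groups carried the Cre transgene, and no library without HSS was analysed here. Per the study's methods the mice were of both sexes and 8 to 12 weeks old, marrow of 2 mice was pooled, and cells were differentiated for 7 days. The labels call the libraries biological replicates, and it is not given whether each came from its own pool of mice. The estimated counts of a library summed to between 24269850 and 28650715 for WT and to between 23389488 and 32231206 for *Drp1* KO. *Dnm1l* stood at 72.7, 69.9 and 75.1 CPM (counts scaled to library size) in WT libraries 1 to 3, against 58.7, 60.7 and 66.3 CPM for *Drp1* KO. The groups did not overlap, as in 21.9% of all genes tested in either direction, but the log2 fold change of -0.23 did not pass (adjusted p = 0.248, edgeR). The paper reports deletion of DRP1 protein in BMDMs of the knockout mice by immunoblot, against *Drp1* fl/fl controls. The 8 macrophage markers summed to 13521 to 14919 CPM in WT and 12057 to 14465 CPM in *Drp1* KO libraries, most of it from *Lyz2* (means of 9489 and 8883 CPM). Of the 8, *Fcgr1* rose (log2 fold change 1.34, adjusted p = 0.000322, edgeR) and *Csf1r* (-0.52, adjusted p = 0.0340) and *Mertk* (-0.52, adjusted p = 0.0236) fell, where 3.36% of all genes passed in either direction. Lymphocyte and fibroblast markers summed to at most 2.80 CPM, and the 4 dendritic cell markers to 2.80 to 4.09 CPM in WT and 1.36 to 2.84 CPM in *Drp1* KO libraries, with *Cd209a* at 0 in every library. The 6 neutrophil markers summed to 78.9 to 92.3 CPM in WT and 91.1 to 195 CPM in *Drp1* KO libraries, most of it from *Mmp8* (78.6 ± 9.53 and 143 ± 64.2 CPM, log2 fold change 0.86, adjusted p = 0.161, edgeR), with *Ly6g* at 0 in every library. *S100a8*, *Camp*, *Ngp* and *Ltf* were also higher in *Drp1* KO, with log2 fold changes of 1.38, 2.02, 1.32 and 1.03. Their group means were at most 7.78 CPM, and they did not pass (adjusted p of 0.107 to 0.386, edgeR). The part of these markers in the values of *Lars2* was not tested.

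The leucyl-tRNA synthetase of mitochondria is made in the cytosol, imported, and joins leucine to the leucine tRNAs encoded by mitochondrial DNA, which the mitochondrial ribosome needs to read leucine codons in the mRNAs of the respiratory chain. Cytosolic translation uses a separate enzyme, encoded by *Lars1*. A transcript annotated for nonsense-mediated decay (NMD) has a stop codon upstream of a late exon junction, a position that marks an mRNA for destruction. The reads were quantified with kallisto, which assigns reads to whole transcripts and divides reads that suit several transcripts among them by likelihood.

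*Lars2* (ENSMUSG00000035202) lies on the plus strand of chromosome 9 in GRCm39, from 123195952 to 123291731. A pair of transcripts runs the full length of the gene, and they carried nearly all of its counts. Lars2-201 is the main coding transcript, with 2706 coding bases in 21 exons, and Lars2-209 is the NMD transcript, with 1485 coding bases in 21 exons. They differed at 4 exon edges only. Lars2-209 starts 67 bases later, its exon 11 ends 4 bases later, its exon 12 starts 117 bases later and its exon 21 ends 2 bases later. The splice between exons 11 and 12 is shown for both transcripts because it is the only internal place where their sequences part. The lines give the 15 bases on each side of the splice, and the capitals mark the 4 extra bases of exon 11.

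Lars2-201, exon 11 to 12: agtggatctgctgagtttacaggtatgacc
Lars2-209, exon 11 to 12: gatctgctgagGTTGcgctactggggcaca

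The left part of the first sequence ends at chr9:123261066 and the right part starts at chr9:123265182, while in the second the left part ends at chr9:123261070 and the right part starts at chr9:123265299. In stretches of 31 bases, 3691 were shared by both transcripts, which was 99.1% of those of Lars2-209. Only 35 stretches of Lars2-209 were absent from Lars2-201, against 213 of Lars2-201 absent from Lars2-209. In the annotation's versions no stretch inside the final exon separated the pair apart from the last 2 bases. In these versions, reads that lie wholly in that exon and do not reach its last 2 bases can therefore not be told apart between them. The Lars2-201 that the reads were quantified on is 40 bases shorter, and where those bases lie was not determined.

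The final exon is the last annotated exon of the gene, chr9:123290564-123291731, 1168 bases with a GC content of 47.9%. In Lars2-201 its first 180 bases hold the end of the coding sequence and the stop codon, and the other 986 bases are 3′ UTR. A stretch of 398 bases inside this UTR, exon positions 294 to 691, recurs in the genome. Of the 18 alignments elsewhere with at least 90% identity over at least 50 bases, 17 lay in that stretch and 1 lay at exon positions 1046 to 1099. With no minimum on identity or length there were 117 alignments, in 2 parts of the exon: positions 293 to 691, with up to 52 alignments over a position, and positions 1004 to 1111, with up to 47. The identity of the 18 ranged from 90.3% to 99.3%, and they were spread over 13 chromosomes or scaffolds. Only 1 of the 18 touched an annotated exon, that of the long noncoding RNA gene *Gm15564*, and none touched an exon of a transcript in the deposited tables.

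A pair of short runs of the recurring stretch are shown because they also occur, with few mismatches and in the same order, in *mt-Rnr2*, the gene of the mitochondrial large-subunit ribosomal RNA. They are the longest ungapped runs between the stretch and *mt-Rnr2* with at most 2 mismatches and with at most 1 mismatch. Each line gives 30 bases, 5′ to 3′ in the direction of *Lars2*, and the capitals mark the run.

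Lars2 exon positions 452 to 481: AAGTTACCACAGGGATAACtggcttgtggc
mt-Rnr2, first run: AAGTTACCCTAGGGATAACagcgcaatcct
Lars2 exon positions 656 to 685: atggtaatcctgctCAGTACGAGAGGAacc
Copy on chromosome 17: atggtaatcctgctCAGTACGAGAGGAacc
Copy on chromosome 16: atgataatcctgctCAGTACGAGAGGAaca
mt-Rnr2, second run: tttacgatttctccCAGTACGAAAGGAcaa

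In GRCm39 the *Lars2* lines are chr9:123291015-123291044 and chr9:123291219-123291248, the copies are chr17:71270706-71270735 (plus strand) and chr16:35802031-35802060 (minus strand), and the *mt-Rnr2* lines are chrM:2362-2391 and chrM:2548-2577, all on the plus strand. The first run is 19 bases long and differed from *mt-Rnr2* at 2 positions, and the second is 13 bases long and differed at 1. Another run of 16 bases with 2 mismatches, exon positions 486 to 501, fell between them in both sequences. Outside the recurring stretch, the longest run with 1 mismatch was 14 bases, at exon positions 804 to 817, against 13 bases inside it, and the longest with 2 mismatches was 15 bases, at 803 to 817, against 19 bases inside it. As background, the second run holds the letters of the sarcin-ricin loop, one of the most conserved parts of large-subunit ribosomal RNA in all organisms, and the first lies in the part that forms the peptidyl transferase centre. The sequence of the cytosolic 28S ribosomal RNA was not used here. The 30-base window of the second run was covered by 6 of the copies, 2 of which were identical to it and 4 of which held the run itself unchanged. The window of the first run was also covered by 6 copies, of which 5 were identical. The 13-base run CAGTACGAGAGGA was found 27 times in the genome, both strands counted. It occurred on the sense strand of 4 of the 116159 deposited transcripts with a matched gene (0.00344%) and on the antisense strand of none of the others. These 4 were Lars2-201, Lars2-209 and a pair of transcripts of *B3galt5*, a galactosyltransferase gene with only 16 counts in all 6 libraries together.

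No gene other than *Lars2* among the matched transcripts of the deposited tables held a 31-base stretch of the final exon. In the annotation 7 transcripts of 3 genes did (*AA474408*, *Gm15564* and *Gm73646*), and none of the 7 was among the deposited transcripts. Among the matched transcripts that kallisto could assign reads to, an exact match to 31 bases of the recurring stretch therefore existed in *Lars2* alone, and the 714 unmatched transcripts were not searched.

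**Figure D1:**
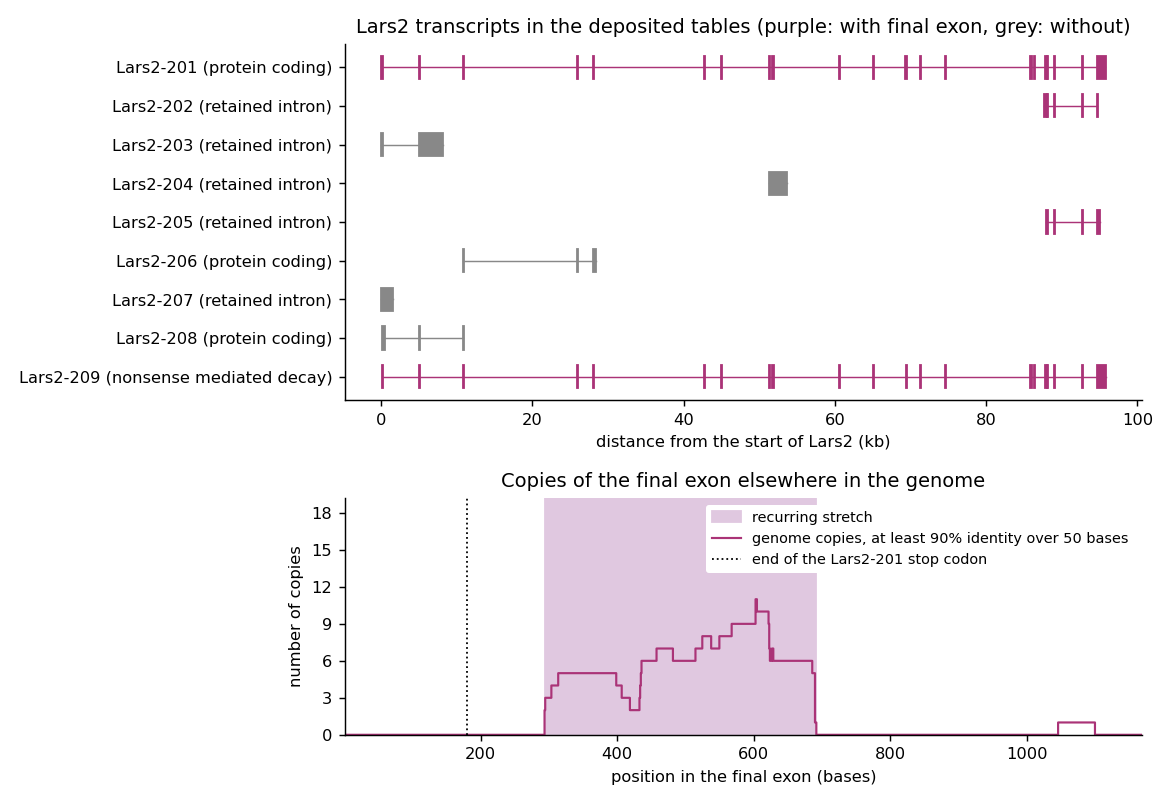
The upper panel draws the 9 Lars2 transcripts of the deposited tables by distance from the gene's start in kb (boxes are exons, drawn at least 0.15 kb wide; purple, with the final exon; grey, without). The lower panel counts, along the 1168 positions of the final exon, the genome copies with at least 90% identity over at least 50 bases, and 17 of the 18 lie in the shaded stretch from position 294 to 691, after the dotted line that ends the Lars2-201 stop codon.

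At the level of the gene, *Lars2* stood far higher in *Drp1* KO BMDMs. Its 9 transcripts together had 163, 168 and 166 CPM in WT libraries 1 to 3 and 1271, 1379 and 2209 CPM in *Drp1* KO libraries 1 to 3. The WT libraries were close together, the *Drp1* KO libraries were spread, and the groups did not overlap, like the 21.9% of genes above. The means were 165 ± 2.57 CPM and 1619.5 ± 513 CPM (SD, n = 3 each), with a fitted log2 fold change of 3.29 (standard error 0.200). This was, of 12248 genes averaging 1 CPM or more, the 19th highest fold change. *Lars2* took 0.0156% to 0.0172% of each WT library and 0.120% to 0.225% of each *Drp1* KO library. By counts it ranked between 1148th and 1310th of 36137 genes in WT and 78th, 58th and 29th in *Drp1* KO libraries 1 to 3.

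In the kallisto division of reads, the whole of this difference was assigned to the NMD transcript. Lars2-209 had 3059.9, 2973 and 3832 estimated counts in WT libraries 1 to 3 and 27339, 43992 and 71127 in *Drp1* KO libraries 1 to 3. Scaled per length, these were 48.0, 41.2 and 51.9 TPM (the per-length unit of kallisto) in WT and 427, 476 and 804 TPM in *Drp1* KO BMDMs. *Drp1* KO library 3 was the highest, and the lowest *Drp1* KO library lay well above the highest WT library. In 9.23% of the 61715 transcripts with at least 10 counts the groups also stood fully apart with *Drp1* KO higher. Mean CPM was 125 ± 11.5 in WT and 1589 ± 516 in *Drp1* KO libraries, a 12.7-fold ratio (3.67 on the log2 scale). Between libraries with the same number the ratio was 9.41, 12.1 and 16.7. The difference of the means was 1464 CPM for Lars2-209 and 1454 CPM for the gene, so that 101% of the gene's difference was on this transcript.

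By the same division of reads, the main coding transcript was not higher in *Drp1* KO BMDMs. Lars2-201 had 676, 1439 and 950.2 estimated counts in WT and 618, 1058 and 815 in *Drp1* KO libraries, or 10.2, 19.2 and 12.4 TPM against 9.27, 11 and 8.86 TPM. WT library 2 was the highest of the 6, and the groups overlapped. The means were 38.5 ± 13.5 CPM and 28.5 ± 3.68 CPM (SD, n = 3 each), a log2 ratio of -0.44, and the means lie closer together than 1 SD of the WT libraries. Between libraries with the same number the ratio was 0.962, 0.599 and 0.772, so *Drp1* KO was the lower in all 3. The share of the gene's counts on Lars2-201 was 17.9%, 32.2% and 19.5% in WT and 2.21%, 2.35% and 1.13% in *Drp1* KO libraries. Lars2-209 already held 81.1%, 66.4% and 78.8% in WT, and 97.7%, 97.5% and 98.8% in *Drp1* KO libraries. In TPM it exceeded Lars2-201 by 4.71, 2.15 and 4.20 times in WT and by 46.0, 43.2 and 90.8 times in *Drp1* KO libraries. Because the pair share nearly all of their sequence, this division rests on few stretches. Those listed above were counted on the annotation's Lars2-201, which is 40 bases longer than the version the reads were quantified on, so they need not be the ones that divided the reads.

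**Figure D2:**
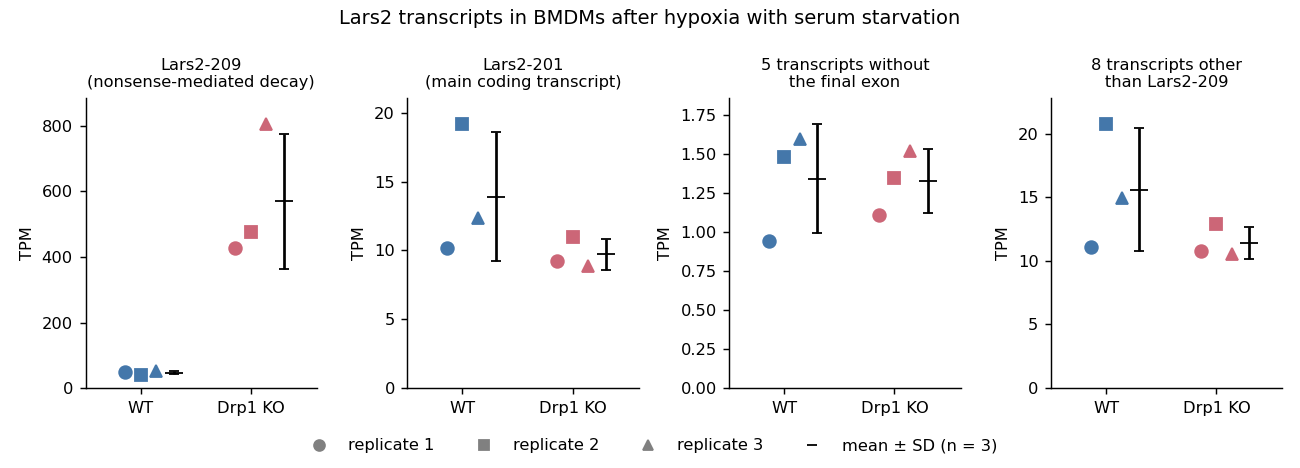
TPM of Lars2-209, Lars2-201, the 5 transcripts without the final exon and the 8 transcripts other than Lars2-209, in 3 WT (blue) and 3 Drp1 KO (red) libraries; each marker is a library and the bar is the mean ± SD, and each panel has its own axis from 0. Lars2-209 runs from 41.2 to 51.9 TPM in WT and from 427 to 804 TPM in Drp1 KO libraries, while the groups overlap in the other panels.

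The 5 transcripts without the final exon did not show the difference. Together they had 36.5, 62.8 and 67.4 estimated counts in WT and 31, 66.7 and 81.2 in *Drp1* KO libraries 1 to 3. Library 1 was the lowest in both groups, and the groups overlapped. In CPM the means were 2.07 ± 0.434 in WT and 1.98 ± 0.544 in *Drp1* KO libraries (SD, n = 3 each), a log2 ratio of -0.07. The pooled 167 WT and 179 *Drp1* KO counts gave a ratio of 0.973, with an exact 95% interval (Clopper-Pearson) of 0.783 to 1.21 that covers counting error only. The log2 ratio turned to the other sign when 1 library was left out, either WT library 2 (0.03) or 3 (0.01) or *Drp1* KO library 1 (0.13).

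Nearly all counts of this class came from a pair of retained-intron transcripts, whose sequence is mostly their own. Lars2-203 keeps sequence of an early intron, and 3005 of its 3385 stretches of 31 bases occur in no other deposited *Lars2* transcript. It had 17.1, 34.5 and 37.4 counts in WT and 15, 31.4 and 40.2 in *Drp1* KO libraries. Lars2-204 is a single exon in the middle of the gene, with 2197 of its 2411 stretches its own. It had 16.4, 25.3 and 23 counts in WT and 13.0, 30.3 and 40.0 in *Drp1* KO libraries. Both transcripts overlapped between the groups. The short Lars2-206 had 0 to 3 counts, Lars2-207 had 0 to 6, and Lars2-208 had 0 in each of the 6 libraries, which allows up to 3 counts or 0.0917 to 0.136 CPM.

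A further pair of transcripts holds a part of the final exon and had few counts in both groups. Lars2-202 carries the first 95 bases of the exon and none of the recurring stretch, and had 0, 1.01 and 12.1 counts in WT and 2, 8.01 and 3 in *Drp1* KO libraries. Lars2-205 carries 401 bases of the exon, 108 of them in the recurring stretch, and had 3.08 counts in *Drp1* KO library 1 and 0 in each other library. At such counts a difference of the size seen for Lars2-209 was not detectable in Lars2-205. All 8 transcripts other than Lars2-209, a set chosen after their values were seen, summed to 40.7 ± 13.7 CPM for WT against 30.6 ± 3.61 CPM for *Drp1* KO, a log2 ratio of -0.41 that ran from -0.58 to -0.10 when 1 library was left out or TPM was used.

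The matched transcripts of the tables were also searched for exact 31-base stretches of 3 ribosomal RNA genes, *mt-Rnr2*, *mt-Rnr1* and the 18S gene *Rn18s-rs5*. A stretch of *mt-Rnr2* was found in *Mtrnr2l7* alone (42 stretches), which was singled out after its values were seen, and none held a stretch of the others. *Mtrnr2l7* had 8768, 19103 and 12491 CPM in WT and 8700.2, 15224 and 14905 CPM in *Drp1* KO libraries 1 to 3. Library 1 was the lowest of both groups and the groups overlapped (log2 fold change -0.06, standard error 0.279, adjusted p = 0.967, edgeR). How many reads of each library came from cytosolic ribosomal RNA was not analysed here.

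Levels per length placed *Lars2* among the other genes that charge tRNAs in mitochondria. Counted over all transcripts, *Lars2* had 62.6 ± 3.94 TPM in WT and 580.4 ± 205 TPM in *Drp1* KO BMDMs, above each of the 21 listed genes in both groups. Without Lars2-209 it had 15.6 ± 4.84 TPM in WT, below 5 of the 21, and 11.4 ± 1.27 TPM in *Drp1* KO BMDMs, below 8 of them. The highest of the 21 was *Gars1*, the glycyl-tRNA synthetase that serves both compartments, with 41.9 ± 6.13 TPM in WT and 47.7 ± 5.33 TPM in *Drp1* KO BMDMs. *Iars2*, which charges isoleucine tRNA in mitochondria, had 33.8 ± 3.71 and 31.2 ± 0.539 TPM, and *Vars2*, for valine, had 1.89 ± 0.344 and 1.70 ± 0.832 TPM. Without Lars2-209, *Lars2* thus lay between these other branched-chain synthetases in both groups.

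**Figure D3:**
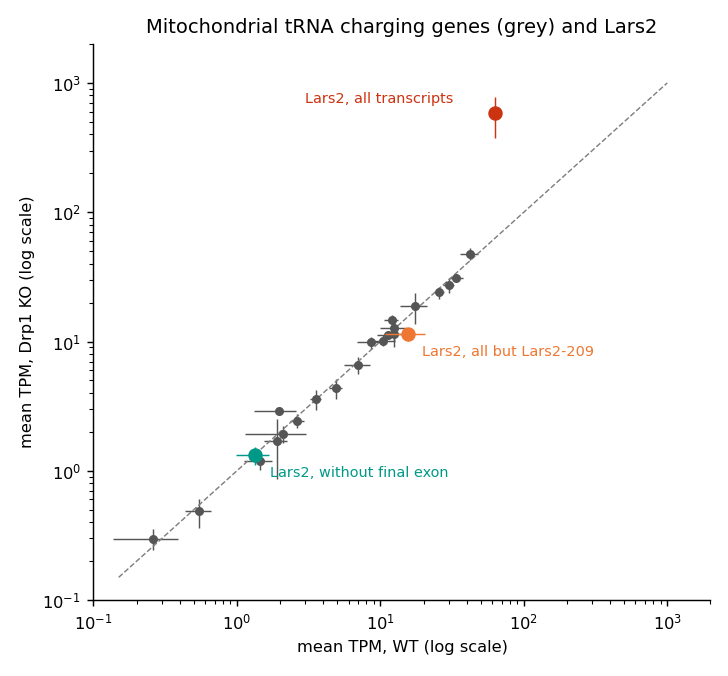
Mean TPM in WT (horizontal, log scale) and Drp1 KO (vertical, log scale) libraries of 21 genes that charge tRNAs in mitochondria (grey) and of Lars2 counted in 3 ways; bars are SD over 3 libraries, and the dashed line marks equal levels. Lars2 over all transcripts (62.6 and 580.4 TPM) stands off the line, and Lars2 without Lars2-209 (15.6 and 11.4 TPM) lies near it with the other genes. Lars2-209, which carried the difference, was left out after its values were seen.

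None of these 21 genes changed by the test that was run across all 18506 genes. At an adjusted p under 0.05 (edgeR), 2.29% of all genes rose and 1.06% fell in *Drp1* KO BMDMs. In the mitochondrial list 0 of 21 passed in either direction, as with DESeq2 (8.8% of all genes in either direction) and limma-voom (3.37%), 1 had an unadjusted p under 0.05 (edgeR, 16.4% of all genes), and the median log2 fold change was 0.11, against 0.00 over all genes. *Iars2* had 96.4, 74.4 and 77.6 CPM in WT and 91.8, 82.6 and 81.0 CPM in *Drp1* KO libraries (log2 fold change 0.04, adjusted p = 0.928, edgeR). *Vars2* had 4.83, 4.91 and 5.15 CPM in WT and 3.72, 3.91 and 4.66 CPM in *Drp1* KO libraries (log2 fold change -0.27, adjusted p = 0.492, edgeR). The groups did not overlap for *Vars2*, with *Drp1* KO lower, or for *Pars2*, *Sars2*, *Tars2* and *Gatc*, with *Drp1* KO higher. The same held in either direction for 21.9% of all genes tested. *Gatc*, a subunit of the amidotransferase that makes glutaminyl-tRNA in mitochondria, had the smallest p of the list, with 13.8 ± 0.886 and 18.0 ± 1.56 CPM (log2 fold change 0.39, adjusted p = 0.129, edgeR). With the replicate number as a block, 12.0% of all genes passed and so did 2 of the 21, *Gatc* (adjusted p = 0.0380) and *Gars1* (log2 fold change 0.28, adjusted p = 0.0309, edgeR).

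Of the 22 cytosolic synthetases and scaffold genes, 1 rose and 0 fell (2.29% and 1.06% of all genes), with a median log2 fold change of 0.15. *Lars1*, the cytosolic counterpart of *Lars2*, had 83.6, 68.9 and 65.7 CPM in WT and 78.9, 85.6 and 77.4 CPM in *Drp1* KO libraries. The groups overlapped, and the log2 fold change was 0.15 (standard error 0.111, adjusted p = 0.584, edgeR). *Wars1*, the interferon-inducible tryptophanyl-tRNA synthetase, rose from 20.8, 16.2 and 16.0 CPM to 29.0, 26.8 and 24.9 CPM, which is 0.60 ± 0.132 (standard error) as a log2 fold change (edgeR, adjusted p = 0.0357). All 3 *Drp1* KO libraries were above all 3 WT libraries, as in 11.7% of all genes tested. The call was lost with length-scaled counts and when any 1 library other than WT library 1 was left out, with an adjusted p of 0.00189 to 0.208 over the alternatives. With the replicate block (12.0% of all genes) 4 of the 22 passed, *Wars1*, *Aars1* (log2 fold change 0.30) and *Farsb* (0.31) upward and *Iars1* (-0.47) downward.

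The genes around *Lars2* on chromosome 9 did not share its difference. Of the 22 listed protein-coding genes within 500 kb, 21 had enough counts to be tested and 0 passed in either direction with edgeR, against 3.36% of all genes. Of the 21, 3 had an unadjusted p under 0.05 (edgeR, 16.4% of all genes), and the median log2 fold change was 0.12. The neighbour before *Lars2*, *Tmem158*, lies 106 kb away and had 2.20, 1.91 and 1.47 CPM in WT and 3.36, 1.56 and 2.27 CPM in *Drp1* KO libraries (adjusted p = 0.663, edgeR). The neighbour after it, *Limd1*, which encodes a LIM-domain adaptor protein, starts 16.0 kb downstream and had 41.9, 38.9 and 40.4 CPM in WT and 46.0, 44.1 and 41.1 CPM in *Drp1* KO libraries (log2 fold change 0.11, adjusted p = 0.640, edgeR). Both overlapped between the groups. With DESeq2 (8.8% of all genes) and with the replicate block (12.0%) 2 passed, the lipid phosphatase gene *Sacm1l* and the chemokine receptor gene *Ccr1*. With limma-voom (3.37% of all genes) 0 passed. *Sacm1l* had 111 ± 2.12 and 137 ± 4.67 CPM (log2 fold change 0.30, adjusted p = 0.0918 with edgeR and 0.0193 with the block), and *Ccr1* had 35.3 ± 9.14 and 60.0 ± 13.6 CPM (log2 fold change 0.77, adjusted p = 0.0699 and 0.000301). *Ccr1* also passed when WT library 3 was left out (adjusted p = 0.0488, edgeR, 1.2% of all genes).

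**Figure D4:**
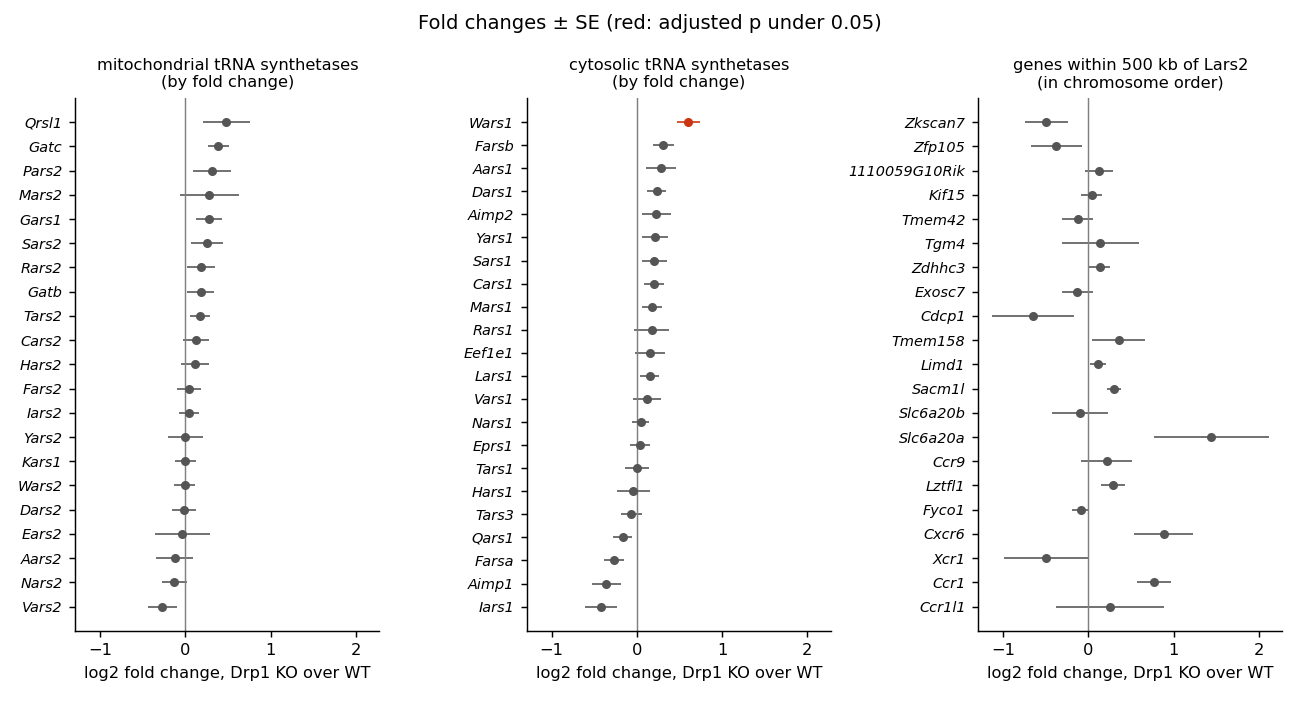
Log2 fold change, Drp1 KO over WT, with its standard error for the genes tested of 3 lists: 21 genes that charge tRNAs in mitochondria, 22 cytosolic synthetase and scaffold genes, and 21 genes within 500 kb of Lars2. Wars1 (0.60, red) has an adjusted p under 0.05 in the edgeR fit, and the fitted value of Lars2, 3.29, lies outside the axis.

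The genes whose log2 CPM over the 6 libraries was most like that of *Lars2* are given as a description, since all of them share the libraries and the division into groups. Pearson's r was at least 0.95 for 265 of the 12247 other genes averaging 1 CPM or more. The 5 highest were *Rpl15-ps3* (0.998), *Usp25* (0.997), *Gm12918* (0.997), *Nras* (0.997) and *Tlr1* (0.996), and the sixth value was also 0.996. *Rpl15-ps3*, a processed pseudogene, had 0 counts in each WT library, which allows up to 0.102 to 0.129 CPM, and 4.27, 6.02 and 9.17 CPM in *Drp1* KO libraries 1 to 3. *Gm12918*, also a processed pseudogene, had 0 counts in each WT library and 10.5, 28.6 and 51.0 CPM in *Drp1* KO libraries. Counts of processed pseudogenes are uncertain, because they can share reads with the genes they were copied from. *Usp25*, *Nras* and *Tlr1* were expressed in both groups. *Usp25*, a ubiquitin protease gene, had 171 ± 0.535 CPM for WT against 205 ± 2.44 CPM for *Drp1* KO, *Nras*, a small GTPase gene, 105 ± 0.354 and 116 ± 2.24 CPM, and *Tlr1*, a receptor for bacterial lipopeptides, 13.1 ± 0.218 and 21.2 ± 0.822 CPM.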

How the data were processed

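The authors quantified paired-end poly(A) reads with kallisto 0.46.1 on Ensembl cDNA of GRCm39 and deposited a table per library that lists, by transcript, an estimated count and a TPM value beside 2 lengths, annotated and effective. The submitters' processing notes also name DESeq2 1.44.0. The study's text gives an RNeasy kit and a TruSeq RNA library kit, and the labels give TRIzol and a stranded TruSeq mRNA kit. The deposited estimated counts, which carry decimals, were summed per gene and rounded, and deposited TPM values were used as they stand, except in length-scaled counts. Of 116873 transcripts, 116159 (99.4%) matched GENCODE vM39 by identifier, and the unmatched ones, left out, held 0.542% to 0.575% of a library. Lars2-201 is 3894 bases long in the tables and 3934 in the annotation, and sequences were read from the annotation and genome. Effective lengths were larger than the annotated ones for 17986 transcripts.

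The fit used edgeR 4.0.16 (R 4.3.3), TMM factors, a minimum total of 10 counts per gene and the quasi-likelihood test without a covariate, with Benjamini-Hochberg adjustment over 18506 genes. CPM used TMM-scaled library sizes. Copies were searched with BLAST+ 2.17.0 (expectation at most 1e-05). Named were *Lars2* and its transcripts, *Lars1*, *Iars2*, *Vars2*, list members that passed, the flanking genes and the 5 genes most like *Lars2*. *Lars2*, the lists and the marker genes were chosen with earlier results of these data known. *Gatc*, *Gars1*, *Pars2*, *Sars2*, *Tars2*, *Aars1*, *Farsb*, *Iars1*, *Sacm1l*, *Ccr1*, *B3galt5*, *Mtrnr2l7* and the markers given with values were named after their values were seen. Alternatives were DESeq2 1.42.0, limma-voom (limma 3.58.1), median-of-ratios factors, library size only, filterByExpr, no filter beyond 1 count, length-scaled counts, a replicate block and leaving out each library. On simulated data (18148 genes, 200 changed 2-fold) the test recovered 77% and called 10 unchanged genes. Deviations from the group mean correlated at 0.510, 0.204 and 0.298 between same-numbered libraries 1 to 3 (12248 genes), each over 0.1, and on this ground alone the libraries were treated as pairs in the block, although WT library 2 correlated more with *Drp1* KO library 3 (0.326) than with library 2. Over all 15 pairs of libraries the counts differed beyond sampling noise (chi-square per degree of freedom at least 9.50). Intervals and floors of 3 counts cover counting error only.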

Additional observations from a re-analysis of the deposited data

How the results depend on the processing

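The fitted log2 fold change of *Lars2* was 3.01 to 3.43 over 14 alternatives, and 3.01 to 3.43 with 1 library left out. The log2 ratio of mean CPM of the transcripts without the final exon (-0.07, pooled SD of log2 CPM within groups 0.37) ranged from -0.27 to 0.13 over 11 alternatives, with a changed sign without WT replicate 2 (0.03), WT replicate 3 (0.01) or *Drp1* KO replicate 1 (0.13). Over all genes 621 passed, against 1155 with DESeq2, 1065 with no filter beyond 1 count, 2212 with the replicate block and 181 to 904 with a library left out. With the replicate block, which pairs same-numbered libraries, 2 mitochondrial synthetase genes, 4 cytosolic ones and 2 neighbours passed, against 0, 1 and 0 without it, and it changed no other call in these lists. Among neighbours 2 passed with DESeq2, 1 with no filter beyond 1 count, 2 within 1 Mb and 0 to 1 with a library left out, the 1 being *Ccr1* without WT library 3. In the cytosolic list 0 passed with length-scaled counts and 0 to 1 with a library left out, 0 being reached when either of WT libraries 2 and 3 or of *Drp1* KO libraries 1 and 2 was missing, and with *Drp1* KO library 3 missing the 1 was *Iars1*, not *Wars1*. The causes of these moves were not tested. No matched gene of the tables other than *Lars2* shared a stretch of 25, 31 or 50 bases with the final exon. The depth limits the transcripts without the final exon, at 167 and 179 counts per group. Transcript-level estimates do not show where in Lars2-209 its reads lay.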
